A study of Homo sapiens with 6 samples.

Results

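The 10 genes described here encode tetraspanins that are known from endosomes, lysosomes, exosomes and the cell surface, and they were taken by name from the 58243 gene identifiers in the count files: CD63, CD9, CD81, CD82, CD151, TSPAN3, TSPAN4, TSPAN6, TSPAN9 and TSPAN14. All 10 names matched an identifier, and all 10 were among the 23884 genes with enough reads to be tested. The samples were 6 libraries of newly made RNA from A375, a human melanoma cell line, grown in hygromycin B. In 3 libraries (EV, numbered 1 to 3) the cells were stably transfected with the empty vector, and in 3 (PRL3, numbered 9 to 11) with a plasmid that expresses human PRL3 with an HA tag; PRL3 is a phosphatase encoded by PTP4A3. All cells received 500 µM of 4-thiouridine (4sU), a uridine analogue that marks RNA made during the pulse, for 20 min. The labelled RNA was then pulled down and sequenced (4sU-seq). The study turned to intron reads for its later work, to limit possible effects of splicing and of mRNA carried over at a low level. The counts used here are of reads in exons, and the part of carried-over mRNA in them was not tested. Whether each line was 1 clone, and whether the libraries of a group came from separate cultures, is not given in the sources used here, so the p-values measure the spread between these libraries, which may be technical.

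Tetraspanins are small proteins that cross the membrane 4 times and gather other membrane proteins, such as integrins, proteases and immunoglobulin superfamily proteins, into patches called tetraspanin-enriched microdomains. Several of them are sorted into the vesicles that form inside late endosomes, and leave the cell when such an endosome fuses with the surface and frees the vesicles as exosomes. CD63, CD9 and CD81 are for this reason the usual protein markers of extracellular vesicles, and CD63 is also carried on melanosomes, the pigment organelles of melanocytes.

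Of the 10 genes, 8 fell in the PRL3 libraries, 1 rose and 1 did not pass the test (edgeR quasi-likelihood test, Benjamini-Hochberg adjusted p under 0.05 over all tested genes). CD151 fell the furthest, to 21.7% of its EV level, and CD63 fell to 31.8%. TSPAN14 rose 1.54-fold, and CD82 was 137 normalized counts in PRL3 against 191 in EV. A fall was called for 22.7% of all tested genes and a rise for 20.0%, and among the 14443 tested protein-coding genes for 31.6% and 15.2%. The median log2 fold change of the 10 genes was -1.21, against 0.11 over all tested genes and -0.15 over the protein-coding ones. The reads of these genes are from bulk cultures, so fewer cells that express a gene and less of its RNA per cell cannot be told apart.

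The libraries held between 36532207 and 57952035 reads in genes. Reads outside annotated exons made up 28.7 to 41.1% of the uniquely aligned reads in EV and 62.8 to 69.1% in PRL3, and the scaling factors (TMM) were 0.816 to 0.894 in EV and 1.12 to 1.25 in PRL3, so the groups also differed in the make-up of their libraries; the part of this in the results below was not tested beyond the other scalings. PTP4A3 had 132 to 307 reads in EV and 20584 to 38659 in PRL3, so every library matched its label. Of the melanoma lineage genes, SOX10 and S100B were read in every library and fell by 0.85 and 1.38 on the log2 scale. MITF had 1004 to 2412 reads, with every PRL3 library above the EV libraries (log2 fold change 0.36, edgeR adjusted p = 0.0738), and PMEL had 26 to 61 reads (log2 fold change -0.33, adjusted p = 0.664), while MLANA, TYR, TYRP1 and DCT had at most 20 reads. Of 9 markers of other cell types 3 had enough reads to be tested, and 0 passed the test. COL1A1 had 29 to 80 reads (log2 fold change -0.80, edgeR adjusted p = 0.146), with normalized counts lower in every PRL3 library. DCN had 17 to 55 reads (-0.84, adjusted p = 0.321) and EPCAM 2 to 21 (1.03, adjusted p = 0.386). PTPRC, CD3E, PECAM1, CDH5, CDH1 and KRT5 had at most 12 reads. The summed level of the list was 112 to 183 normalized counts in EV and 79.3 to 121 in PRL3.

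Promoters are shown from the RefSeq promoter table (GRCh38) for members chosen by motif. CD63 and CD9, usual exosome markers that fell, held a motif, and TSPAN14, the member that rose, held none. The letters searched were CACGTG and CATGTG, on both strands and in capitals where found. These are forms of the E-box, the short element bound by MITF and the TFE factors, which drive genes of melanosomes and lysosomes. Each run holds the 250 bases before the start of the canonical transcript, read 5′ to 3′ on the gene's own strand; other annotated transcripts start further upstream, so the runs of CD63 and CD9 lie inside the annotated gene spans given below, and that of TSPAN14 partly so: CD63 at chr12:55729010-55729259 (minus strand), CD9 at chr12:6200150-6200399 (plus strand) and TSPAN14 at chr10:80454060-80454309 (plus strand).
CD63: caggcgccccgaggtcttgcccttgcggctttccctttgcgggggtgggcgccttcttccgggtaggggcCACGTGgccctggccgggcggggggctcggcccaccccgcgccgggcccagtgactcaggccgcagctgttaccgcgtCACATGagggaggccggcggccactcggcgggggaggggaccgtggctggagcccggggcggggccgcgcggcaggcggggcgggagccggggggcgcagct
CD9: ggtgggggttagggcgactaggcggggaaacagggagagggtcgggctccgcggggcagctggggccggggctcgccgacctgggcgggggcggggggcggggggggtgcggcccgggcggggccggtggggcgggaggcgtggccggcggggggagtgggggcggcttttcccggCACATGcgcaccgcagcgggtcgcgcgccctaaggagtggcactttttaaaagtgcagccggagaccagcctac
TSPAN14: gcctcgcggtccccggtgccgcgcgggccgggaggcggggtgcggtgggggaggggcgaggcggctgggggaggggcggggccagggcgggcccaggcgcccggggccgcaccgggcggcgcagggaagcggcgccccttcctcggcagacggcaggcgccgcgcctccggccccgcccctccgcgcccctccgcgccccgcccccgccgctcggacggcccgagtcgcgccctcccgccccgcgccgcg
The CD63 run held CACGTG, which reads the same on both strands, starting 180 bases before the start of the canonical transcript, and CACATG, the other strand of CATGTG, starting 102 bases before it. The CD9 run held CACATG starting 74 bases before the start of its canonical transcript. The TSPAN14 run held neither, and the runs of CD82, TSPAN4 and TSPAN6 also had none. TSPAN4 and TSPAN6 fell all the same, and CD82 did not pass the test. Binding to these promoters, and any part of the motifs in the fold changes, was not tested. Over the 11616 promoter runs of the same length from tested genes, 8.7% held CACGTG, 5.7% held CATGTG and 13.9% held either. The G and C content was 79.2% in CD63, 76.8% in CD9 and 88.0% in TSPAN14, against a median of 65.2%. CD81, CD151, TSPAN3 and TSPAN9 have no entry in the table.

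**Figure D1:**
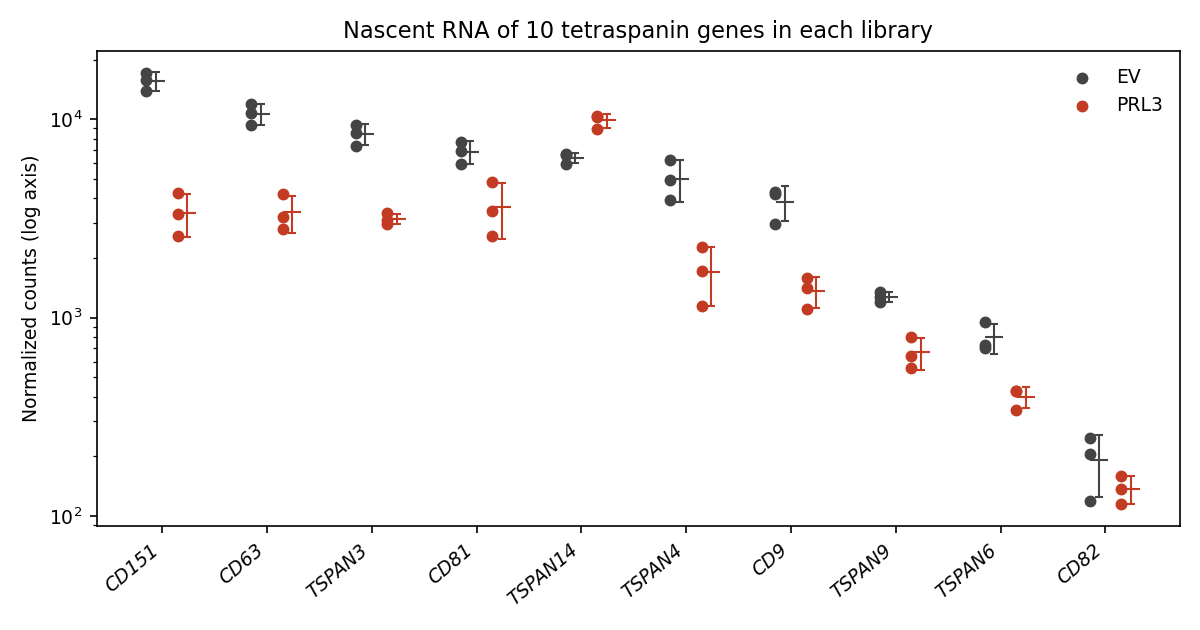
Normalized counts (log axis) of the 10 tetraspanin genes in each of the 3 EV (black) and 3 PRL3 (red) libraries, with the group mean and SD beside the points. The groups do not overlap for 9 genes, of which TSPAN14 alone is higher in PRL3, and they overlap for CD82.

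CD63, the tetraspanin of late endosomes, lysosomes and melanosomes (ENSG00000135404, GRCh38 chr12:55725323-55729707), had 10770, 11921 and 9369 normalized counts in the EV libraries and 2793, 4183 and 3209 in the PRL3 libraries. The highest PRL3 library was well below the lowest EV library. The mean fell from 10687 ± 1278 (SD, n = 3) to 3395 ± 713, a log2 fold change of -1.65 (SE 0.18, edgeR adjusted p = 1.84e-05). The 1-gene exact permutation test of the group labels gave p = 0.1, which is the smallest that 3 libraries against 3 can give, and it gave the same value for every member but CD82. The groups of 8 members did not overlap with PRL3 lower and those of 1 did not overlap with PRL3 higher, against 26.6% and 29.7% of all tested genes.

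CD9 (chr12:6199715-6238271), a surface and exosome tetraspanin with roles in adhesion and membrane fusion, had 4313, 4223 and 2973 normalized counts in EV and 1100, 1582 and 1405 in PRL3. It fell from 3836 ± 749 to 1362 ± 244 (log2 fold change -1.49, SE 0.19, edgeR adjusted p = 5.01e-05). CD81 (chr11:2376177-2397802), a surface and exosome tetraspanin known as a receptor of hepatitis C virus, had 5943, 7718 and 6942 normalized counts in EV and 2585, 4855 and 3438 in PRL3. PRL3 replicate 10 came closest to the EV libraries, and the groups did not overlap. CD81 fell less far than CD63 and CD9, from 6868 ± 890 to 3626 ± 1147 (log2 fold change -0.92, SE 0.21, edgeR adjusted p = 0.00304). With the libraries scaled by their gene read totals alone its log2 fold change was -0.44 and no longer passed the test (adjusted p = 0.0604).

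CD82 (chr11:44564427-44620358), known as a suppressor of metastasis, was the least read of the 10 genes, with 119, 205 and 248 normalized counts in EV and 114, 158 and 137 in PRL3. The groups overlapped, and EV replicate 1 lay among the PRL3 libraries. The means were 191 ± 65.5 and 137 ± 22.1 (log2 fold change -0.48, SE 0.32, edgeR adjusted p = 0.249; exact permutation p = 0.3). CD82 was called lower under 1 of 14 alternatives, the scaling by all uniquely aligned reads (log2 fold change -0.94, adjusted p = 0.0238).

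CD151 (chr11:832887-839831), the tetraspanin that binds the laminin-binding integrins, was the most read member in EV, with 13840, 17169 and 15751 normalized counts, and had 2572, 4233 and 3330 in PRL3. The highest PRL3 library lay far below the lowest EV library. The mean fell from 15587 ± 1671 to 3378 ± 832, which is 4.61-fold (log2 fold change -2.21, SE 0.19, edgeR adjusted p = 9.47e-06). Of the tested protein-coding genes, 1.2% had a log2 fold change below that of CD151.

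TSPAN4 (chr11:842812-867116), known from migrasomes, the vesicles that migrating cells leave on their retraction fibres, lies next to CD151 on the same strand with 2980 bases between them. It had 3901, 6254 and 4921 normalized counts in EV and 1141, 2264 and 1716 in PRL3, and fell from 5025 ± 1180 to 1707 ± 561 (log2 fold change -1.56, SE 0.24, edgeR adjusted p = 0.000197). POLR2L, a small subunit of the RNA polymerases, reaches from CD151 into the gap on the other strand. It shares 257 exonic bases with CD151, and it had a log2 fold change of -1.75 (SE 0.15, edgeR adjusted p = 8.62e-06). All 3 neighbouring genes were thus lower; the reads were counted by strand.

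TSPAN3 (chr15:77041404-77083984), a widely expressed tetraspanin, had 9391, 8539 and 7326 normalized counts in EV and 3113, 3363 and 2981 in PRL3, and the PRL3 libraries lay close to each other. It fell from 8419 ± 1038 to 3152 ± 194 (log2 fold change -1.42, SE 0.15, edgeR adjusted p = 1.77e-05). A pair of unnamed genes annotated on the same strand inside the span of TSPAN3, without sharing any of its exons, rose. ENSG00000269951 (chr15:77067654-77068325) had 306, 109 and 262 normalized counts in EV and 523, 592 and 810 in PRL3 (log2 fold change 1.51, SE 0.32, edgeR adjusted p = 0.00228). ENSG00000278991 (chr15:77063397-77064910) had 157, 106 and 168 in EV and 297, 348 and 495 in PRL3 (log2 fold change 1.40, SE 0.28, edgeR adjusted p = 0.00148). Reads at these positions went the other way from the exons of TSPAN3 around them, in libraries in which the share of reads outside annotated exons also was higher; whether they are transcripts of their own or unspliced TSPAN3 RNA cannot be told apart from gene counts. In the span of TSPAN9, TSPAN9-IT1 (log2 fold change 0.23) and ENSG00000275850 (0.68) lie on the same strand, were read at most 59 times in a library and did not pass the test.

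TSPAN6 and TSPAN9 were read less. TSPAN6 (chrX:100627108-100639991), which is known to affect the sorting of cargo into exosomes, had 951, 728 and 703 normalized counts in EV and 341, 426 and 427 in PRL3 (means 794 ± 137 and 398 ± 49.5, log2 fold change -0.995, SE 0.20, edgeR adjusted p = 0.00143). TSPAN9 (chr12:3077355-3286564), known from platelets, had 1201, 1350 and 1264 in EV and 560, 798 and 643 in PRL3 (means 1272 ± 74.8 and 667 ± 121, log2 fold change -0.93, SE 0.18, edgeR adjusted p = 0.00110). Neither gene's groups overlapped, and both were close to 50% of their EV level, at 50.2% and 52.5%.

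TSPAN14 (chr10:80454265-80533124) belongs to the TspanC8 group, the tetraspanins that bind the protease ADAM10 and carry it to the surface. It had 5959, 6582 and 6671 normalized counts in EV and 10276, 10396 and 8962 in PRL3. Every PRL3 library lay above every EV library, the reverse of the 8 members that fell. It rose from 6404 ± 388 to 9878 ± 796 (log2 fold change 0.63, SE 0.14, edgeR adjusted p = 0.00337). The rise depended on the scaling: with all uniquely aligned reads as the library size the log2 fold change was 0.15 (adjusted p = 0.520). That scaling also moved the median of all tested genes, from 0.11 to -0.36. TSPAN14 stood 0.51 above that median in both. A change of library size shifts all genes nearly alike, so this distance stays by construction and does not test the rise.

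**Figure D2:**
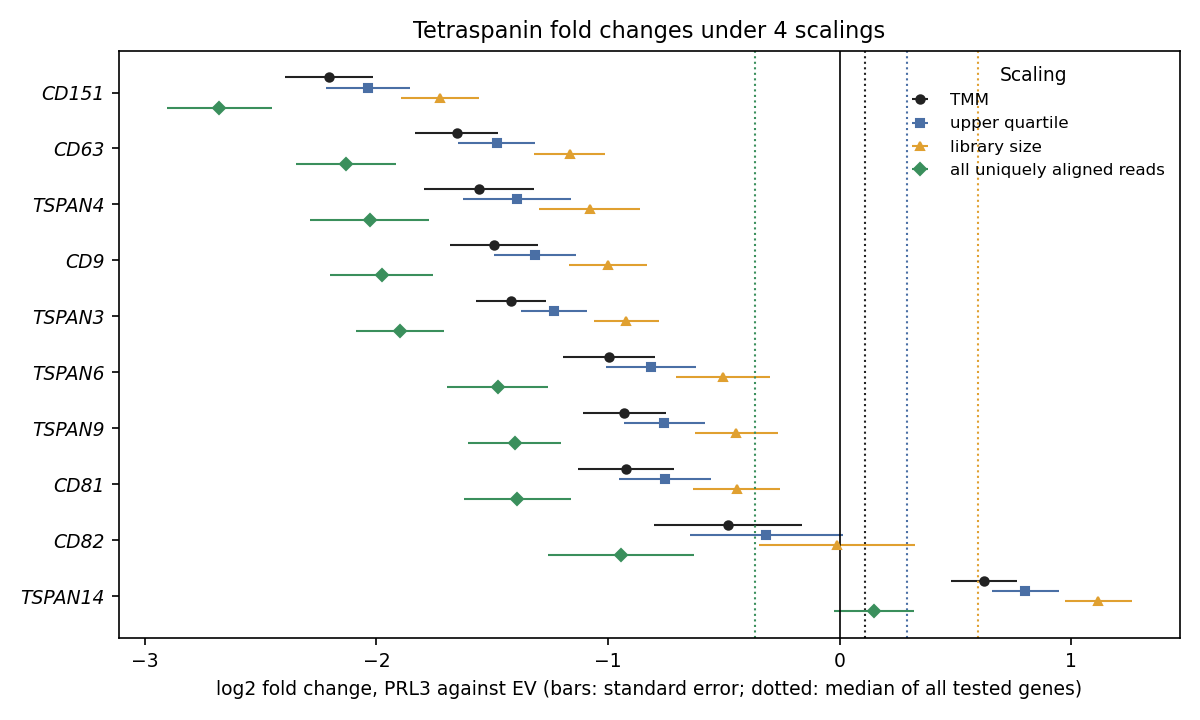
Log2 fold change of each tetraspanin in PRL3 against EV with its standard error (bars) under 4 scalings of the libraries; dotted lines mark the median of all tested genes under each. The scaling shifts all 10 genes together, the order from CD151 to TSPAN14 stays, and TSPAN14 runs from 0.15 to 1.12.

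The scaling bears on all directions given here. Of all calls 53.1% were lower with TMM, 24.4% with the gene read totals alone (median of all genes 0.60) and 81.3% with all uniquely aligned reads. Under both of these alternatives CD63 and CD151 stayed past the threshold, at log2 fold changes of -1.17 and -1.73 with the gene read totals and -2.13 and -2.68 with all uniquely aligned reads. Over 14 alternatives, 140 member values in all, 0 changed sign against a called value, 137 kept their side of the threshold, and the other 3 are the values of CD81, CD82 and TSPAN14 given above.

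The make-up of the tetraspanin reads does not depend on the scaling. TSPAN14 took 10.6, 10.2 and 11.9% of the reads of the 10 genes in EV and 41.8, 32.2 and 34.1% in PRL3, a mean of 10.9 ± 0.890% against 36.0 ± 5.06% (SD, n = 3; exact permutation p = 0.1, the smallest possible). CD151 went from the largest share in EV, 26.4 ± 1.75%, to 12.1 ± 1.43%. CD63 went from 18.1 ± 1.25% to 12.2 ± 0.806% (exact permutation p = 0.1), a difference of -5.89 points. After Benjamini-Hochberg adjustment over the 10 genes, the exact permutation p was 0.167 for each of TSPAN14, CD151 and CD63. Shares add up to a whole, so the larger share of TSPAN14 lowers the others. Among the reads of the other 9 genes, CD63 took 20.3 ± 1.23% in EV and 19.1 ± 0.473% in PRL3, with overlapping libraries (exact permutation p = 0.3). On that base CD151 went from 29.6 ± 2.19% to 18.9 ± 0.782% and CD81 from 13.0 ± 1.14% to 20.0 ± 2.08%, each without overlap (exact permutation p = 0.1).

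**Figure D3:**
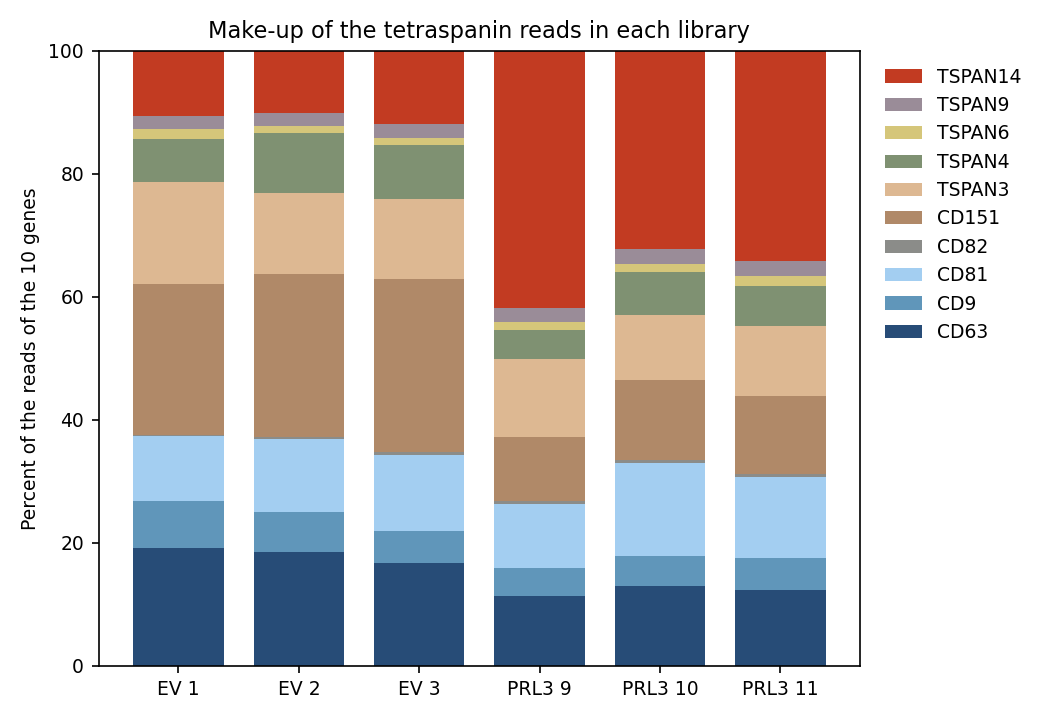
Share (percent) of the reads of the 10 tetraspanin genes that each gene took in each library, stacked to 100. TSPAN14 (red, top) takes 10.2 to 11.9% in the EV libraries and 32.2 to 41.8% in the PRL3 libraries, and CD151 takes 24.5 to 28.0% and 10.5 to 13.1%.

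The summed level of the 10 genes was 59082 ± 4857 normalized counts in EV and 27701 ± 4033 in PRL3, and without TSPAN14 it was 52678 ± 4724 and 17823 ± 3800 (exact permutation p = 0.1 each). The 10 genes held 0.106 ± 0.00695% of all gene reads in EV and 0.0694 ± 0.00632% in PRL3.

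The order of the levels is given per kb of annotated exon, while shares and sums of reads depend on the length of the genes as well. In EV the order was CD63 at 4412 ± 528 normalized counts per kb, CD151 at 4003 ± 429, TSPAN3 at 1002 ± 124, TSPAN4 at 861 ± 202, CD81 at 860 ± 111, CD9 at 658 ± 128, TSPAN14 at 360 ± 21.8, TSPAN9 at 184 ± 10.8, TSPAN6 at 175 ± 30.2 and CD82 at 47.2 ± 16.2. The libraries of CD63 and CD151 overlapped, as did those of TSPAN3, TSPAN4 and CD81 from one to the next, and those of TSPAN9 and TSPAN6. CD63 stood above 96.7% of the tested protein-coding genes in EV and 93.7% in PRL3, while CD151 went from 96.3 to 87.7% and CD9 from 76.7 to 54.2%.

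In PRL3 CD63 led with 1402 ± 294 per kb and CD151 followed with 868 ± 214. TSPAN14 was next with 555 ± 44.7, up from rank 7 in EV to rank 3, and its libraries overlapped those of CD81 (454 ± 144 per kb), which overlapped those of TSPAN3 (375.3 ± 23.1), and so on to TSPAN4 (292 ± 96.2) and CD9 (234 ± 41.9). TSPAN9 (96.6 ± 17.5) and TSPAN6 (87.8 ± 10.9), which overlapped each other, and CD82 (33.8 ± 5.47) closed the order. The lengths matter: 68.8% of the annotated exon bases of TSPAN14 and 81.4% of those of CD81 lie outside the canonical transcript. Per kb of canonical transcript, a choice made after seeing the data, TSPAN14 went from rank 7 to rank 4, CD81 stood at rank 3 in EV and rank 2 in PRL3, and TSPAN3 dropped to rank 6 and rank 7.

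**Figure D4:**
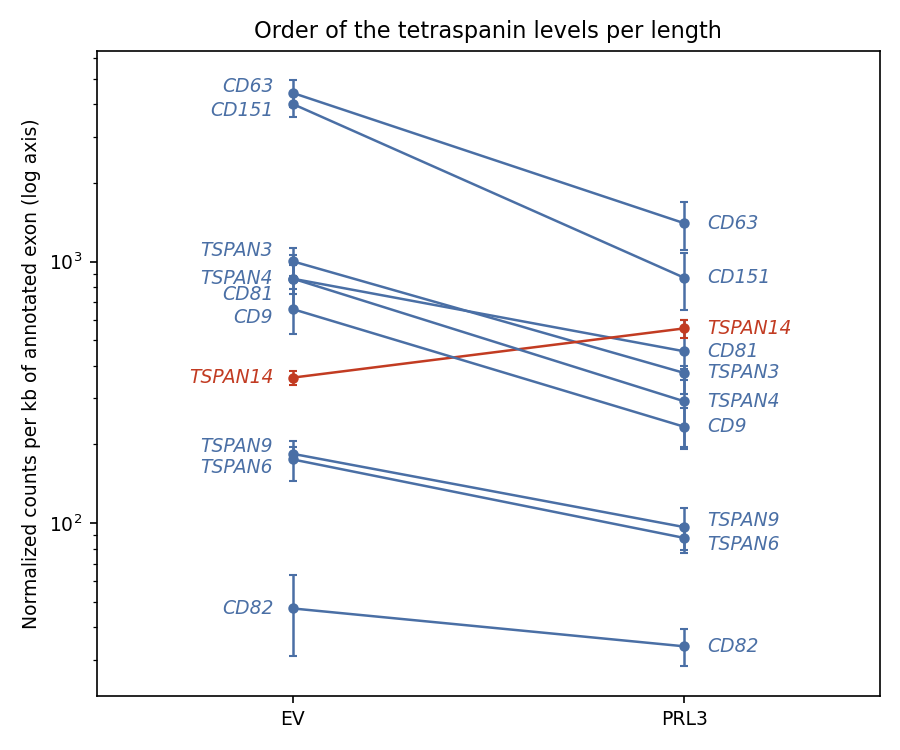
Mean level of each tetraspanin per kb of annotated exon (normalized counts per kb, log axis) in EV and PRL3, with the SD over 3 libraries as bars and a line joining the means of a gene. CD63 leads in both groups, and TSPAN14 (red) crosses from rank 7 in EV to rank 3 in PRL3.

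The members differ in size. The gene spans run from 4.385 kb in CD63 and 6.945 kb in CD151 to 78.86 kb in TSPAN14 and 209.21 kb in TSPAN9. The rank correlation of span with log2 fold change was 0.697 over the 10 genes, which share the same libraries, and 0.297 over the 14443 tested protein-coding genes. In those, 48.4% of the genes of up to 10 kb were called lower and 12.8% of those over 100 kb, with median log2 fold changes of -0.64 and 0.14. CD63 and CD151, of -1.65 and -2.21, belong to the first size class, and TSPAN9, of -0.93, to the class over 100 kb. The class of 30 to 100 kb (median -0.09) holds TSPAN14, of 0.63, and also CD9 (-1.49), TSPAN3 (-1.42) and CD82 (-0.48). CD81 (-0.92), TSPAN4 (-1.56) and TSPAN6 (-0.995) lie in the class of 10 to 30 kb (median -0.33). The part of gene span in these values was not tested.

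Of 23 further tetraspanin genes 16 were tested, and 8 fell, 1 rose and 7 did not pass the test, with a median log2 fold change of -0.83. Among all tested protein-coding genes falls also outnumbered rises, 31.6% against 15.2%. ROM1, a tetraspanin of photoreceptor discs, fell by 2.26 on the log2 scale (SE 0.25, edgeR adjusted p = 2.12e-05) and TSPAN13 fell by 2.24 (SE 0.23, edgeR adjusted p = 1.57e-05). TSPAN1, TSPAN11, TSPAN12, TSPAN15, TSPAN17 and TSPAN33 also fell, with log2 fold changes from -1.59 to -0.84. TSPAN2, known from oligodendrocytes, rose from 99.8 ± 38.7 to 352 ± 28.2 normalized counts (log2 fold change 1.82, SE 0.31, edgeR adjusted p = 0.000401). TSPAN5, TSPAN10, TSPAN19, TSPAN31, TSPAN32, CD53 and UPK1A did not pass the test. TSPAN7, TSPAN8, TSPAN16, TSPAN18, CD37, UPK1B and PRPH2 had too few reads, and CD37, a tetraspanin of leukocytes, had 0 reads in all libraries.

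Within the TspanC8 group the members parted. TSPAN15 (log2 fold change -1.59, SE 0.30), TSPAN17 (-1.27, SE 0.18) and TSPAN33 (-1.10, SE 0.27) fell, TSPAN14 rose, and TSPAN5 (0.12) and TSPAN10 (0.13) did not pass the test. TSPAN14 took 59.0 ± 2.55% of the reads of these 6 genes in EV and 80.1 ± 1.37% in PRL3, and TSPAN17 took 27.5 ± 2.91% and 10.1 ± 1.58% (exact permutation p = 0.1 each). These shares are not per length, and TSPAN14 has 17.79 kb of annotated exon against 5.215 kb in TSPAN17. The summed level of the 6 genes was 10872 ± 809 normalized counts in EV and 12321 ± 869 in PRL3, with overlapping libraries (exact permutation p = 0.2). ADAM10, the protease they bind, chosen after its value was seen, had a log2 fold change of 0.03 (SE 0.18, edgeR adjusted p = 0.903).

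The proteins that tetraspanins gather in the membrane were split. Of 19 such genes, all tested, 8 fell and 0 rose by the edgeR test. At an unadjusted p under 0.05, 1 was higher, and DESeq2 also called 0 higher. For 2 genes every PRL3 library lay above every EV library, and for 8 every PRL3 library lay below. Among all tested genes, 29.7% lay above in this way and 26.6% below. The median log2 fold change of the list was 0.00. The share that fell was 42.1%, against 22.7% of all tested genes and 31.6% of the protein-coding ones. The rises depended on the scaling: 3 passed with upper-quartile scaling and 9 with the gene read totals alone. Of all tested genes, 26.6% and 39.8% were called higher under these scalings. TIMP1, a metalloprotease inhibitor that binds CD63, fell by 2.12 on the log2 scale (SE 0.16, edgeR adjusted p = 4.88e-06). IGSF8, an immunoglobulin superfamily partner of CD9 and CD81, fell by 1.62 (SE 0.20), and MMP14, a membrane protease, fell by 1.55 (SE 0.18). The integrin subunits ITGA3 and ITGB1, which form the main partner of CD151, and its partner subunits ITGB4 and ITGA7 were chosen here after their values were seen: they fell by 1.05, 1.03, 0.98 and 1.42. ITGA6, also a laminin-binding alpha subunit and chosen in the same way, had a log2 fold change of -0.26 (SE 0.17, edgeR adjusted p = 0.255).

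Of 28 genes of vesicle biogenesis and release, all tested, 15 fell, 2 rose and 11 did not pass the test, with a median log2 fold change of -0.57. The share that fell was 53.6%, against 22.7% of all tested genes and 31.6% of the protein-coding ones. FLOT2, a membrane scaffold protein, fell by 1.80 (SE 0.19), TSG101, a subunit of ESCRT-I, fell by 1.57 (SE 0.17), and CHMP4B, an ESCRT-III filament protein, fell by 1.31 (SE 0.18). CHMP4A, a near relative of CHMP4B, rose from 22 to 69 reads in EV to 125 to 162 reads in PRL3 (log2 fold change 1.75, SE 0.42, edgeR adjusted p = 0.00449), and VPS4B, the ATPase that takes ESCRT-III apart, rose by 0.60 (SE 0.14). Of the syndecan, syntenin and ALIX route to exosomes, also chosen after the values were seen, SDC1 to SDC4 all fell, SDCBP (syntenin) fell by 0.48 (SE 0.17, edgeR adjusted p = 0.0377), and PDCD6IP (ALIX) had a log2 fold change of -0.23 (SE 0.16, edgeR adjusted p = 0.255).

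Of 10 other membrane proteins of late endosomes and lysosomes, 9 were tested, 3 fell and 0 rose (edgeR; 1 was higher at an unadjusted p under 0.05, and DESeq2 also called 0 higher), with a median log2 fold change of 0.07. The share that fell, 33.3%, was near the 31.6% of all tested protein-coding genes. With the gene read totals alone 1 fell and 5 rose, while 12.9% of all tested genes were called lower and 39.8% higher. LAMP1 fell by 0.98 (SE 0.15, edgeR adjusted p = 0.00017), CTNS, the cystine carrier, by 0.58 (SE 0.19) and MCOLN1, a calcium channel, by 0.48 (SE 0.16). Leaving out any 1 of PRL3 replicates 9, 10 and 11 gave 1 fall. CD63, which shares the compartment, had a log2 fold change of -1.65, and LAMP2, chosen after its value was seen, one of -0.05 (SE 0.17). Whether the 10 tetraspanins differ from any of these lists was not tested.

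**Figure D5:**
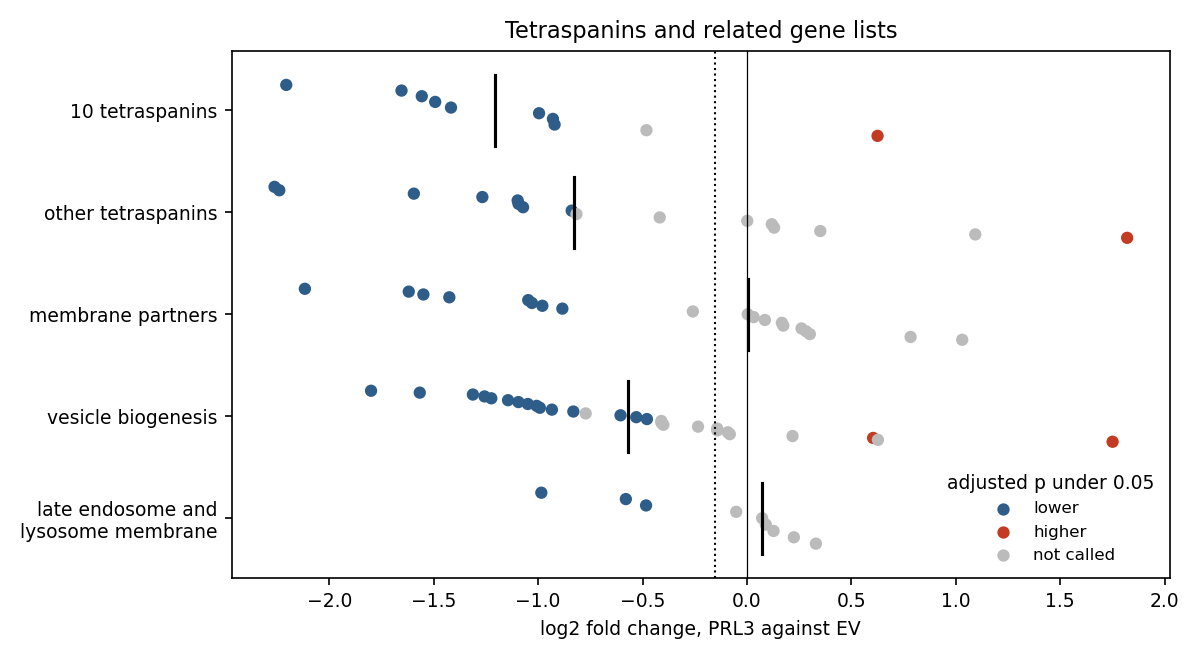
Log2 fold changes in PRL3 against EV of the 10 tetraspanins and of the tested genes of 4 related lists, coloured by the edgeR call; black bars mark the median of each list and the dotted line that of all tested protein-coding genes (-0.15). The medians are -1.21, -0.83, 0.00, -0.57 and 0.07 from top to bottom, and each list holds genes on both sides of 0.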

How the data were processed

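The deposited files hold raw counts of reads per gene made by the authors, 1 file per library: reads were checked with FastQC 0.11.3, aligned to GRCh38 with STAR 2.5.1b and counted by strand with HTSeq 0.6.1 (reverse setting) on the exons of Ensembl 91. Rows that name no gene stayed out of library sizes and tests; reads outside exons were 28.7 to 69.1% and ambiguous reads 1.67 to 5.01% of uniquely aligned reads. Gene names, spans and exons came from GENCODE 44, which held 57532 of 58243 identifiers, and promoters from RefSeq.

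Counts were tested in edgeR 4.0.16 (R 4.3.3): filterByExpr by group, TMM factors, quasi-likelihood F-test of PRL3 against EV, Benjamini-Hochberg adjustment over 23884 genes, threshold 0.05. A normalized count is a count divided by the effective library size, times the mean effective library size. Single values were compared by a two-sided exact permutation test over libraries, with p = 0.1 the smallest possible for 3 against 3. Libraries held 36532207 to 57952035 gene reads. Libraries of a group differed beyond sampling noise (mean chi-square per gene at least 24.7). In data simulated for this comparison over 22756 genes, the test found 76 of 187 genes changed 2-fold, with 7 false calls. In the real data 22.7% of tested genes were called lower and 20.0% higher, so the simulated false calls need not hold for them.

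The members and the lists were chosen with earlier results of these data known. Named were all members, every other tetraspanin, and of each list up to 3 called genes with the lowest and 3 with the highest log2 fold change; ADAM10, integrin subunits, the syndecan, syntenin and ALIX genes and LAMP2 were added after their values were seen. Genes named as checks of the labels and cell type and genes that lie beside or inside members are further exceptions. Alternatives scaled by upper quartile, by RLE, by gene read totals alone or by all uniquely aligned reads, and used DESeq2 1.42.0 (the study used an older version), other filters, protein-coding genes only or 5 of the 6 libraries. No protein sequences were used here.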

Additional observations from a re-analysis of the deposited data

Results flagged for a closer look

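Reads outside annotated exons, which enter no gene's count, made up 66.3 ± 3.18% (SD, n = 3) of the uniquely aligned reads in PRL3 and 33.3 ± 6.75% in the EV controls (exact permutation p = 0.1, the smallest possible). This signal lies in data that the comparisons of genes do not use. It differed between the same groups as the tetraspanin counts, which by itself shows no link, and its part in those counts was not tested.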

How the results depend on the processing

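No paired analysis was possible because the EV and PRL3 libraries share no replicate numbers. The count of members lower in PRL3 stayed within 1.5 times of 8 under every alternative run, and the count higher was 0 with all uniquely aligned reads. With upper-quartile scaling 3 membrane partners were higher, and 1 late endosome gene was lower and 1 higher. Of all tested genes 18.7% were lower and 26.6% higher under that scaling. With the gene read totals alone, 5 other tetraspanins were lower and 2 higher, 9 membrane partners and 5 vesicle genes were higher, 1 late endosome gene was lower and 5 higher, and over all genes 3078 were lower and 9514 higher. With all uniquely aligned reads 1 vesicle gene was higher, and over all genes 8473 were lower and 1952 higher. With at least 10 counts in every library 1 membrane partner and 1 late endosome gene were higher, against 24.6% of all genes tested there. With protein-coding genes only 5 membrane partners were higher and 1 late endosome gene was lower and 1 higher. Of all genes tested in that setting 26.7% were lower and 23.9% higher. Leaving out 1 library in turn gave 0 to 2 membrane partners higher, the 2 without EV replicate 1, and 1 to 3 late endosome genes lower, the 1 without each of PRL3 replicates 9, 10 and 11. The CD63 share of the tetraspanin reads differed by -5.89 points, by -3.29 with reads per kb, by -1.20 among the 9 genes without TSPAN14 (chosen after seeing the data), and by -6.58 to -5.37 with 1 library left out. Other alternatives moved none of these counts by over 1.5 times. Precision is limited by 3 libraries a group and, for CD82, by its low counts.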
